A study of Mus musculus with 6 samples.

Results

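The 55 genes described here act in mitosis, from the cyclin-dependent kinase complexes that start it to the proteins that separate the daughter cells. They were taken as a fixed list of symbols, all 55 of which were found among the 24421 gene symbols of each file. The study sorted endothelial cells from C57BL/6 mice and sequenced their RNA in 6 libraries. Of these, 3 came from glioma, 3 weeks after GL26l glioma cells had been injected into the brain, and 3 came from normal brain. The tumors grew from a cultured line placed in the brain, in hosts that keep their own vessels and immune cells, and the normal libraries came from brain without tumor. The comparison asks how tumor vessels differ from brain vessels at the level of RNA. The submitters call the 3 sets of RNA of each kind independent, but nothing in the labels says how many animals gave each library, so the tests measure the spread between these samples, which may be technical.

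Mitotic genes are known to be silent in resting cells and to switch on together late in the cell cycle. The endothelium of adult brain is known to divide rarely, while sprouting vessels contain dividing cells. In mitosis, cyclin B with Cdk1 drives entry, kinetochores on the centromeres attach chromosomes to spindle microtubules, and the spindle checkpoint holds back the anaphase-promoting complex until all are attached. Separation of sister chromatids and cleavage of the cell follow.

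Values are deposited on a log2 scale, read from the numbers as log2(x + 1) after quantile normalization across the 6 libraries. Many genes are listed at 0. The lowest value above 0 differs between libraries, at 0.42, 3.82 and 5.22 in glioma replicates 1, 2 and 3 and at 7.43, 2.84 and 0.22 in normal replicates 1, 2 and 3. A gene listed at 0 is therefore reported only as such, and means are given only for genes above 0 in a whole group. Genes of all kinds above 0 numbered 13108, 10954 and 10013 in the glioma libraries and 7446, 11853 and 13072 in the normal libraries. Normal replicate 1 thus stands apart by its few genes, and results that rest on it are given with and without it. Sequencing depth is unknown. All 16 endothelial markers were above 0 in each library, and Pecam1, an adhesion molecule of endothelium, stood at 14.89, 15.37 and 15.99 in glioma and 15.31, 16.39 and 15.99 in normal libraries.

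Mitotic genes were listed above 0 more often in the glioma libraries, but none reached the adjusted threshold of a test across the transcriptome. Of the 55 members, 55, 49 and 40 were above 0 in glioma replicates 1, 2 and 3, and 27, 23 and 33 in normal replicates 1, 2 and 3. As percentages these are 100, 89.1 and 72.7 in glioma and 49.1, 41.8 and 60.0 in normal libraries, where all genes in the files gave 53.7, 44.9 and 41.0 in glioma and 30.5, 48.5 and 53.5 in normal libraries. Above the shared floor of 7.43, the highest of the lowest values above 0, the members numbered 44, 24 and 27 in glioma and 26, 11 and 10 in normal libraries, so that normal replicate 1 then exceeded glioma replicate 2. Glioma replicate 1 and normal replicate 3 listed nearly the same share of all genes above 0, but different shares of the mitotic genes. Of the members, 39 were above 0 in all glioma libraries and 15 in all normal libraries. Those at 0 in every normal library numbered 14, and 0 members were at 0 in every glioma library. Shares over all genes were not computed for these counts, and normal replicate 1 listed few genes of any kind. Of the 14, 7 were above 0 in all glioma libraries (12.7% of the members), beside 0.481% of the genes tested. Summed on the back-transformed scale, the 55 members made up 0.378%, 0.0971% and 0.144% of all values in glioma replicates 1, 2 and 3, and 0.196%, 0.0604% and 0.0545% in normal replicates 1, 2 and 3. Here normal replicate 1 lay above glioma replicates 2 and 3, so the groups overlapped. In bulk samples, a change in the share of dividing cells and a change in RNA per cell cannot be told apart.

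**Figure D1:**
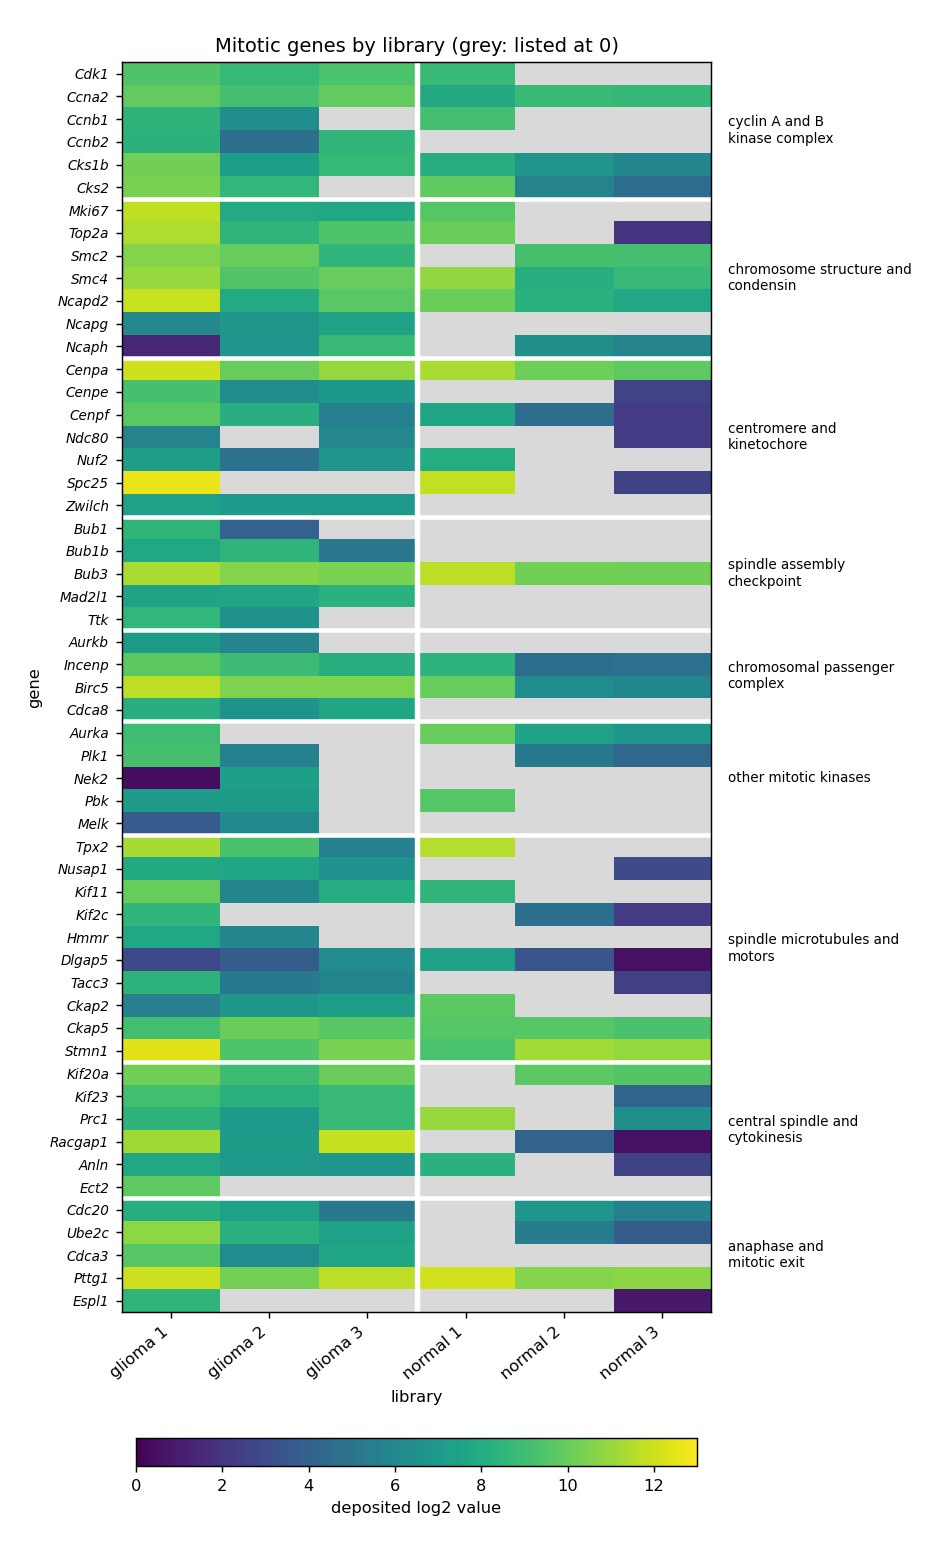
Deposited log2 value of each of the 55 mitotic genes (vertical axis, by role) in the 3 glioma and 3 normal libraries (horizontal axis), with genes listed at 0 in grey. The 3 glioma columns hold 0, 6 and 15 grey cells, and the 3 normal columns hold 28, 32 and 22.

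With limma over the 11862 genes that passed the filter on low values, 47 of the 55 members were tested and 0 passed a Benjamini-Hochberg adjusted p of 0.05, as did 0% of all genes. The smallest adjusted p was 0.875, both among members and among all genes. An unadjusted p under 0.05 was reached by 14 members, all with higher means in glioma, where 2.35% of all tested genes reached it in that direction and 1.94% in the other. Of the 14, 7 were at 0 in all normal libraries and entered the test through the glioma libraries alone, so the filter fixed their direction and the count supports nothing about the members. Without normal replicate 1, 5.4% of all tested genes reached it with higher values in glioma. Every glioma value exceeded every normal value for 15 of the 55 members (27.3%), beside 6.91% of all tested genes. Of the 15, 7 were at 0 in all normal libraries and passed the filter through the glioma libraries alone, so their direction was fixed. Cenpe, Nusap1, Tacc3, Kif23, Racgap1 and Ube2c, also among the 14, had too few normal values to pass without glioma values. Of the 15, Ccna2 and Birc5 would have passed on their normal values. The 55 also include the 8 members left out by the filter, so the shares rest on unlike sets. The contrast is thus a description only. Every glioma value was under every normal value for 0 members, beside 6.37% of tested genes. Without normal replicate 1, the glioma libraries lay above the remaining normal libraries for 29 members (52.7%), beside 14.7% of tested genes, and below for 0, beside 20.7%. The 29 hold the same 7 members. They also hold Cdk1, Mki67, Nuf2, Tpx2, Kif11 and Ckap2, which were at 0 in both remaining normal libraries. The direction of all these members was thus fixed by zeros. With the shared floor, the 15 became 5 (Ccna2, Mad2l1, Birc5, Kif23 and Ube2c), beside 4.14% of tested genes. Without the mean trend in limma's variance prior, 3 members (Mad2l1, Zwilch and Cdca8) and 15 of all genes passed, each member at an adjusted p of 0.0475. These 3 are at 0 in every normal library, so their normal spread is 0 by their zeros and the call supports no difference. The 8 members left out by the filter were Bub1, Ttk, Aurkb, Nek2, Melk, Hmmr, Ect2 and Espl1, each above 0 in at most 2 libraries. The median difference over all 55 members, glioma minus normal, was 3.34 on the log2 scale, beside 0.05 over all tested genes. That size depends on the zeros, since it was 0.38 when every value was raised to the shared floor.

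**Figure D2:**
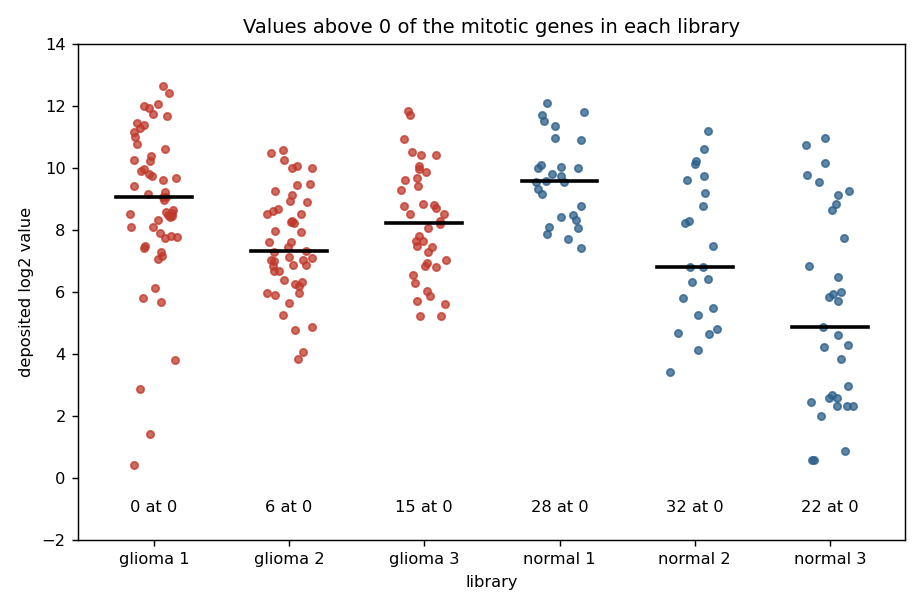
Deposited log2 values above 0 of the mitotic genes in each library (points), with their median (bar) and the number of genes listed at 0 below. Medians of the values above 0 were 9.07, 7.32 and 8.23 in the glioma libraries and 9.57, 6.79 and 4.87 in the normal libraries.

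Genes of this kind share letters in their promoters, which are shown for 7 members whose values are described below. The CHR, a short element known to recruit the DREAM complex in resting cells and MuvB complexes with B-Myb and FoxM1 in dividing cells, has the letters TTTGAA. It often lies near the start of transcription with CCAAT boxes, the sites of the factor NF-Y, upstream of it. RefSeq promoter windows (GRCm38.p6), from 250 bases before to 50 after each start, were matched for 45 of the 55 members. Each run below is 5′ to 3′ on the strand of the gene, with CHR and CCAAT letters on either strand in capitals. In the Cdca8 window a CCAAT match on the other strand shares 1 base with the end of the CHR. The first 4 are members whose 3 glioma values all exceeded the 3 normal values, and Cdk1 and Top2a are members that normal replicate 1 also listed high.
Ccnb2, chr9:70421505-70421804, minus strand: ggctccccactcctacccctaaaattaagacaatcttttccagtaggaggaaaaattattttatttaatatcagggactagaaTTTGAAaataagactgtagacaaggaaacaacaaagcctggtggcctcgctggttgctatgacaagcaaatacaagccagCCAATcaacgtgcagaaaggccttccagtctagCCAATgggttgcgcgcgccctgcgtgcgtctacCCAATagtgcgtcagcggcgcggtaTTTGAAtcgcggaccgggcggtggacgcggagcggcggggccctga
Cdca8, chr4:124936868-124937167, minus strand: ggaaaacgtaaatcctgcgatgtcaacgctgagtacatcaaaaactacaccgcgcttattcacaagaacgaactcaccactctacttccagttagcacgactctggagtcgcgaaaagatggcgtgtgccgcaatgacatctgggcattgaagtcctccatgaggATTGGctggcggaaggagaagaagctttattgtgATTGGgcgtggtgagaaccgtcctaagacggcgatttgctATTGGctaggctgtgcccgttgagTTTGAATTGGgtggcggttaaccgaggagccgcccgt
Kif23, chr9:61946750-61947049, minus strand: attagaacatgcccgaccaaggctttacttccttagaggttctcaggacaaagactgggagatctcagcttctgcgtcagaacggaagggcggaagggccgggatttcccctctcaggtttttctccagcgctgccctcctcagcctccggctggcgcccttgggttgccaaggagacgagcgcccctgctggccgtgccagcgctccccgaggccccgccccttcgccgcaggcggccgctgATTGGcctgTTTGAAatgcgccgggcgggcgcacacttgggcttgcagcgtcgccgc
Racgap1, chr15:99651607-99651906, minus strand: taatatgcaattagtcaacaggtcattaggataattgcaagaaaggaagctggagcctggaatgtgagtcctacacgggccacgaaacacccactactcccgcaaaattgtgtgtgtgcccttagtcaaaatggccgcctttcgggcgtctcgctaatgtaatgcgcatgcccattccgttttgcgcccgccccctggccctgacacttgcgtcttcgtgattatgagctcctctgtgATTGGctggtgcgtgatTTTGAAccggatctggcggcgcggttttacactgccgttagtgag
Cdk1, chr10:69352863-69353162, minus strand: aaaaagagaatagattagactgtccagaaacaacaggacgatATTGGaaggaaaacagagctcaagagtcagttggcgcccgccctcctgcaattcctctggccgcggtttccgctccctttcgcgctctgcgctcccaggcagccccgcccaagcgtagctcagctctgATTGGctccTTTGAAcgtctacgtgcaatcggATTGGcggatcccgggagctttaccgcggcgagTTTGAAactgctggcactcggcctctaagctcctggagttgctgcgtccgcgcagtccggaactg
Top2a, chr11:99024140-99024439, minus strand: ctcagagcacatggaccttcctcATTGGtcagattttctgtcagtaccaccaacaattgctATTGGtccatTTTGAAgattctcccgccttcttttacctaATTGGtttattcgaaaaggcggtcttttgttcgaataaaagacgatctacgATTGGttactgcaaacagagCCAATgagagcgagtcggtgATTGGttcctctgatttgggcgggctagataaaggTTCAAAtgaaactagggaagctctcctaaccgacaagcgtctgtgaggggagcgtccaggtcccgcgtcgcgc
Mad2l1, chr6:66534971-66535270, plus strand, shown as a member whose window holds neither set of letters: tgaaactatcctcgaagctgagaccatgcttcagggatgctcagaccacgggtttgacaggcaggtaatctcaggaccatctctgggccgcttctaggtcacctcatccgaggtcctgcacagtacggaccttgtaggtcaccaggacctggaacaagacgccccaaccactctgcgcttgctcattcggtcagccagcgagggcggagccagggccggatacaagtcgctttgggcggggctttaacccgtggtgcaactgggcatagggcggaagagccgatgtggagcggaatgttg

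In Ccnb2 the CHR letters began 4 bases after the start, and in Kif23, Racgap1 and Cdca8 they began 2, 5 and 13 bases after it. TTTGAA on either strand was present in 35 of 48 member windows (72.9%), against 17.9% of all 32851 windows. Within 50 bases of the start it was present in 62.5% of member windows, against 4.94% of all windows. CCAAT was present in 77.1% of member windows, against 37.4% of all, and both sets of letters together in 66.7%, against 6.95%. Counted by gene, 8 of the 13 matched members whose groups did not overlap held TTTGAA, as did 24 of the 32 other matched members. Letters read as E2F sites, which here are TTTCGC on either strand, the variant form TTTGGC and the longer TTCCCGC, were present in 31.2% of member windows, against 20.3% of all. The starts are those of RefSeq and can differ from the GENCODE positions given here. The Mad2l1 window ends at 66535270, before the GENCODE start at 66535390, so its lack of letters holds for that window only. The Cdca8 window ends at 124937167, inside the GENCODE gene, which starts at 124939311 on the minus strand. These are descriptions of sequence, and a match is not a shown binding site.

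In the kinase complex of mitotic entry, the cyclin B2 gene was listed in glioma libraries only, while the cyclin B1 gene was listed in both groups. Ccnb2 (chromosome 9, 70407692 to 70421547, GENCODE M21 on GRCm38), a B-type cyclin, was at 8.33, 4.78 and 8.51 in the glioma libraries and listed at 0 in the 3 normal libraries. Ccnb1, the other B-type cyclin, was at 8.47, 6.38 and 0 in glioma and at 9.17, 0 and 0 in normal libraries. One library of each group thus went against the other libraries of its group for Ccnb1. Cdk1, the kinase both cyclins activate, was at 9.42, 8.69 and 9.30 in glioma and at 8.76, 0 and 0 in normal libraries. Here normal replicate 1 lay between the glioma values while the other normal libraries were listed at 0. Ccna2, the A-type cyclin of S phase and early mitosis, was at 9.89, 9.12 and 9.85 in glioma and at 7.87, 8.78 and 8.65 in normal libraries, so its groups did not overlap. Its difference was 1.19 (SE 0.71, limma adjusted p = 0.875), and its means were 9.62 ± 0.43 and 8.43 ± 0.49 (SD, n = 3 each) in glioma and normal libraries.

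The Ccna2 value needs a caution, because the gene ends inside Exosc9, a gene of the other strand, with 863 bases in common. Exosc9, which encodes a subunit of the RNA exosome, was at 9.41, 8.73 and 9.41 in glioma and at 7.85, 8.78 and 8.65 in normal libraries. Ccna2 and Exosc9 therefore had values within 0.01 of each other in 2 libraries, normal replicates 2 and 3. Whether the authors' counting used strand is not given in the sources used here, so reads of this pair cannot be told apart. In all, 8 members end inside a gene of the other strand that the files list. The others are Ncapg with Lcorl, Zwilch with Lctl, Bub3 with Fgfr2, Kif20a with Cdc23, Prc1 with Rccd1, Cdc20 with Elovl1 and Ube2c with Tnnc2. Tnnc2, a muscle troponin, was listed at 0 in all 6 libraries, while Elovl1, a fatty acid elongase, was at 11.56, 11.66 and 10.43 in glioma and 11.73, 11.29 and 11.22 in normal libraries.

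Cks1b and Cks2 encode the small subunits that bind cyclin-dependent kinases. Cks1b was at 10.25, 7.30 and 8.69 in glioma and at 8.11, 6.79 and 5.95 in normal libraries, a difference of 1.80 (SE 1.25). Its groups overlapped only through normal replicate 1, which lay above glioma replicate 2. Cks2 was at 10.38, 8.62 and 0 in glioma and at 9.81, 5.80 and 4.60 in normal libraries, so its highest and its lowest value were both in glioma.

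Among genes of chromosome structure, the marker gene of proliferation and the topoisomerase were both highest in glioma replicate 1. Mki67 encodes Ki-67, a coat of mitotic chromosomes, and was at 11.74, 7.92 and 7.80 in glioma and at 9.57, 0 and 0 in normal libraries. Top2a, the topoisomerase that untangles sister DNA, was at 11.44, 8.52 and 9.42 in glioma and at 10.03, 0 and 2.00 in normal libraries. For both, normal replicate 1 lay above glioma replicates 2 and 3, and without it every glioma value exceeded the remaining normal values. Condensin, the ring that compacts chromosomes, has the core subunits Smc2 and Smc4 with Ncapd2, Ncapg and Ncaph in its first form. Ncapg was at 6.11, 6.86 and 7.47 in glioma and at 0 in the 3 normal libraries. Lcorl, the gene of the other strand in which Ncapg ends, had 10.44, 9.35 and 9.53 in glioma and 9.50, 10.06 and 9.71 in normal libraries, a different pattern. The remaining subunits were present in both groups. Smc4 was at 11.01, 9.47 and 9.98 in glioma and 10.91, 8.21 and 8.83 in normal libraries (difference 0.84, SE 0.83), and Ncapd2 at 11.93, 7.97 and 9.68 in glioma and 10.08, 8.29 and 7.72 in normal libraries (difference 1.16, SE 1.10). Smc2 was at 10.61, 10.00 and 8.50 in glioma and 0, 9.20 and 9.13 in normal libraries. Ncaph was at 1.42, 6.83 and 8.83 in glioma and 0, 6.42 and 5.85 in normal libraries. Subunits of the same ring thus did not share a pattern, and the groups of all but Ncapg overlapped.

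Kinetochore genes ranged from Zwilch, at 0 in normal libraries, to Cenpa, high in all libraries. Zwilch, a subunit of the complex that brings dynein to kinetochores, was at 7.43, 7.04 and 7.04 in glioma and at 0 in the 3 normal libraries. Its partner on the other strand, Lctl, was above 0 only in glioma replicate 2, at 7.04, the same value as Zwilch in that library. Cenpe, the kinesin that moves chromosomes to the spindle equator, was at 9.21, 6.26 and 6.92 in glioma and at 0, 0 and 2.66 in normal libraries, without overlap. Cenpf, a large protein of the outer kinetochore, was at 9.67, 8.22 and 5.60 in glioma and at 7.71, 4.65 and 2.32 in normal libraries, a difference of 2.94 (SE 2.18), with overlap through normal replicate 1. Cenpa, the histone H3 variant that marks centromeres, was at 12.07, 10.00 and 10.92 in glioma and at 11.35, 10.13 and 9.78 in normal libraries. Its difference of 0.57 (SE 0.68) was smaller than the spread within each group.

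Ndc80, Nuf2 and Spc25 are subunits of the NDC80 complex, which grips microtubules. In these libraries their values were not alike. Ndc80 was at 5.80, 0 and 6.03 in glioma and 0, 0 and 2.32 in normal libraries, and Nuf2 at 7.30, 4.87 and 6.80 in glioma and 8.06, 0 and 0 in normal libraries. Spc25 was at 12.64 in glioma replicate 1 and 11.82 in normal replicate 1, but at 0 in glioma replicates 2 and 3, at 0 in normal replicate 2 and at 2.58 in normal replicate 3. The value in glioma replicate 1 was the highest of all 55 members there. Spc25 was thus high in 1 library of each group, and its groups overlapped.

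Of the 5 spindle checkpoint genes, 4 were listed at 0 in every normal library and Bub3 was high in both groups. Mad2l1 (chromosome 6, 66535390 to 66547220), which encodes the Mad2 protein that inhibits Cdc20, was at 7.48, 7.62 and 8.28 in glioma and listed at 0 in the 3 normal libraries. Bub1b, which encodes the checkpoint protein BubR1, was at 7.76, 8.52 and 5.22 in glioma and at 0 in the normal libraries. Bub1 and Ttk, the checkpoint kinases that recruit and activate these proteins, were also at 0 in all normal libraries, but at 0 in glioma replicate 3 as well. Bub1 was at 8.50 and 4.07 and Ttk at 8.63 and 6.66 in glioma replicates 1 and 2. Bub3, a platform protein of the checkpoint, was present throughout, at 11.37, 10.58 and 10.41 in glioma and 11.71, 10.23 and 10.17 in normal libraries. Its difference was 0.08 (SE 0.60, limma adjusted p = 0.987), and the sign turned when glioma replicate 1 was left out (-0.21) or normal replicate 2 or 3 (-0.15 and -0.19).

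The chromosomal passenger complex corrects faulty attachments with the Aurora B kinase. Birc5 (chromosome 11, 117849251 to 117855743), which encodes its subunit survivin, was at 11.68, 10.48 and 10.50 in glioma and at 9.99, 6.31 and 5.98 in normal libraries. These groups did not overlap, and Birc5 and Ccna2 were the members to be so among the 13 that were above 0 in all 6 libraries. Means were 10.88 ± 0.69 in glioma and 7.43 ± 2.22 in normal libraries (SD, n = 3 each), a difference of 3.46 (SE 1.11, limma unadjusted p = 0.0132, adjusted p = 0.875). Without normal replicate 1 the difference was 4.74, with a limma adjusted p of 0.367. Incenp, the scaffold, was at 9.75, 8.91 and 8.19 in glioma and 8.43, 4.68 and 4.87 in normal libraries, a difference of 2.96 (SE 1.47). Cdca8 (chromosome 4, 124918465 to 124939311), which encodes borealin, was at 8.09, 6.66 and 7.63 in glioma and at 0 in the normal libraries. The kinase gene itself, Aurkb, was at 7.07, 5.89 and 0 in glioma and at 0 in the normal libraries. Glioma replicate 3 thus listed the 3 other subunits but not the kinase.

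The other mitotic kinases did not share the order of the groups. Aurka, the Aurora kinase of centrosomes, was at 8.96, 0 and 0 in glioma and at 9.98, 7.49 and 6.83 in normal libraries, so that only 1 glioma library listed it. Plk1, which drives many steps of mitosis, was at 9.15, 5.65 and 0 in glioma and at 0, 5.25 and 4.29 in normal libraries. Pbk, a kinase of dividing cells, was at 7.16, 7.08 and 0 in glioma and at 9.56, 0 and 0 in normal libraries. For none of the 5 genes in this group did the groups separate. Melk, found in dividing progenitor cells, was at 3.81, 6.20 and 0, and Nek2, a centrosome kinase, at 0.42, 7.32 and 0 in glioma, with both at 0 in the normal libraries. All 5 kinases were listed at 0 in glioma replicate 3, the library with the fewest genes above 0 in its group.

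Spindle genes included members at 0 in most normal libraries and members present throughout. Nusap1, which bundles microtubules at chromosomes, was at 7.90, 7.62 and 6.56 in glioma and at 0, 0 and 2.97 in normal libraries. Tacc3, which stabilizes kinetochore fibers, was at 8.40, 5.25 and 5.88 in glioma and at 0, 0 and 2.46 in normal libraries. Neither gene's groups overlapped. Tpx2, the activator of Aurora A on the spindle, was at 11.30, 9.27 and 5.71 in glioma and at 11.53, 0 and 0 in normal libraries. Kif11, the motor that pushes spindle poles apart, was at 9.98, 5.97 and 8.07 in glioma and at 8.49, 0 and 0 in normal libraries. Ckap2, a microtubule-associated protein, was at 5.69, 6.86 and 7.30 in glioma and at 9.73, 0 and 0 in normal libraries. In these 3 genes normal replicate 1 alone of the normal libraries was above 0, and for Tpx2 and Ckap2 it held the highest value of the 6.

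Kif2c, a kinesin that takes microtubules apart, was at 8.57, 0 and 0 in glioma and at 0, 4.79 and 2.32 in normal libraries. Hmmr, a spindle protein that also binds hyaluronan, was at 7.74, 5.97 and 0 in glioma and at 0 in normal libraries. Dlgap5, which holds kinetochore fibers together, was at 2.87, 3.82 and 6.28 in glioma and 7.43, 3.42 and 0.58 in normal libraries, a difference of 0.52 (SE 2.60). That difference was -0.13 with a pseudocount of 16 and -1.09 without normal replicate 3. Ckap5, the microtubule polymerase of spindles and of resting cells, was at 9.07, 10.07 and 9.61 in glioma and 9.55, 9.60 and 9.25 in normal libraries, a difference of 0.11 (SE 0.61) that was -0.13 without glioma replicate 2. Stmn1, which encodes stathmin, a binder of free tubulin that neurons also make in quantity, was at 12.42, 9.43 and 10.41 in glioma and 9.31, 11.18 and 10.96 in normal libraries. The Stmn1 difference of 0.27 (SE 0.85) turned to -0.31 with normal replicate 1 left out and to -0.56 with glioma replicate 1 left out.

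The last steps of division were marked by centralspindlin, the complex of Kif23 and Racgap1 that tells the cell where to cleave. Kif23 was at 9.08, 8.27 and 8.81 in glioma and at 0, 0 and 4.21 in normal libraries. Racgap1 was at 11.15, 7.11 and 11.85 in glioma and at 0, 4.13 and 0.58 in normal libraries. The groups of both subunits did not overlap, and the unadjusted limma p of Racgap1 was 0.00661 (adjusted p = 0.875). Partners of the complex were less uniform. Prc1, the bundler of the central spindle, was at 8.45, 7.0 and 8.77 in glioma and at 10.98, 0 and 6.48 in normal libraries. Anln, which encodes the ring protein anillin, was at 7.81, 7.04 and 6.82 in glioma and at 8.31, 0 and 2.58 in normal libraries. Normal replicate 1 gave the highest value of both.
Ect2, the exchange factor that activates RhoA at the cleavage site, was above 0 only in glioma replicate 1, at 9.79. Kif20a, the kinesin that carries the passenger complex to the midzone, was at 10.23, 8.92 and 10.07 in glioma and at 0, 9.74 and 9.53 in normal libraries. Its partner on the other strand, Cdc23, a subunit of the anaphase-promoting complex, was at 8.66, 6.31 and 8.79 in glioma and 0, 8.07 and 7.83 in normal libraries, with 2327 bases in common. Kif20a and Cdc23 thus ran in parallel over the libraries, and their reads cannot be told apart for the same reason as with Ccna2.

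Of the genes of anaphase, Ube2c and Cdca3 separated the groups. Ube2c, which encodes a ubiquitin-conjugating enzyme of the anaphase-promoting complex, was at 10.77, 8.26 and 7.45 in glioma and at 0, 5.49 and 3.82 in normal libraries. Cdca3, a trigger of mitotic entry that the same complex destroys, was at 9.62, 6.31 and 7.66 in glioma and at 0 in the normal libraries. Cdc20, the activator of that complex and target of the checkpoint, was at 8.09, 7.44 and 5.22 in glioma and at 0, 6.79 and 5.70 in normal libraries, with overlap. Pttg1, which encodes securin, the inhibitor of separase, was high in all libraries, at 11.99, 10.26 and 11.71 in glioma and 12.09, 10.62 and 10.74 in normal libraries. Its difference was 0.17 (SE 0.64), with -0.16 without glioma replicate 1. Espl1, the gene of separase itself, was above 0 in glioma replicate 1 at 8.53 and in normal replicate 3 at 0.87.

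**Figure D3:**
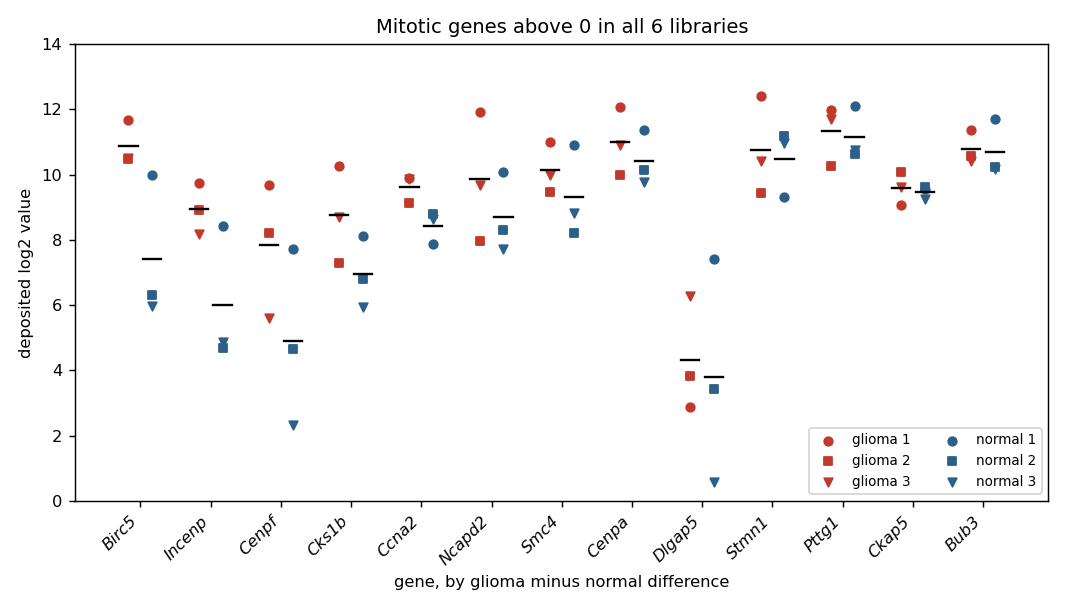
Deposited log2 values of the 13 mitotic genes above 0 in all 6 libraries, ordered by difference, with glioma (red) left of normal (blue), 1 marker shape for each replicate and a bar at the group mean. Birc5 and Ccna2 are the genes whose 3 glioma values all lie above the 3 normal values.

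Among the 13 members with a value above 0 in every library, the difference was above 0 for 13 and its median was 0.84. All 5880 genes above 0 in all 6 libraries had a median difference of -0.18, and 41.9% of them were above 0. Without normal replicate 1 the median of the 13 was 1.63, beside -0.12 for the 5880 genes. Of the 13, Bub3, Dlgap5, Ckap5, Stmn1 and Pttg1 changed sign under at least 1 alternative, while the other 8 did not under any that was run. The sign itself is thus uncertain for the 5 genes named, which include Pttg1 and Stmn1, the highest members in the normal libraries.

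Normal replicate 1 set the overlap of the groups for many members. It was above 0 for 8 members that were at 0 in both other normal libraries, namely Mki67, Cdk1, Ccnb1, Tpx2, Kif11, Nuf2, Pbk and Ckap2. The reverse, with 0 in normal replicate 1 and values in both others, held for 8 members, namely Smc2, Ncaph, Plk1, Kif2c, Kif20a, Racgap1, Cdc20 and Ube2c. Of the 55 members, 11 had their highest value of the 6 in normal replicate 1, and 34, 4 and 6 had it in glioma replicates 1, 2 and 3. None had it in normal replicates 2 or 3, by the same count. The same count over all genes was not made, so these counts set nothing apart about the members. Glioma replicate 1 had the most genes above 0, and normal replicate 1 the highest median of all genes above 0, at 9.49. The deposited files of replicates 2 and 3 carry a common number within each group and none across the groups, and its meaning is not stated, so any batch it marks and the group cannot be told apart. Groups restricted to these 4 libraries separated 32 members upward and 3, Aurka, Kif2c and Stmn1, downward, beside 24.6% and 30.9% of all tested genes.

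Other genes of cell division, in 10 further lists of 170 different genes, were measured for comparison. Of the 134 tested, 0 reached an adjusted p of 0.05 in limma. The groups did not overlap for 16 of the 170, with glioma higher, and for 3 with glioma lower, where 6.91% and 6.37% of all tested genes did so. The counts of each list that follow are to be read beside these shares. Of 34 other kinetochore genes, 5 were wholly higher in glioma, namely Cenpi, Cenpj, Dsn1, Ska2 and Sgol2a. Sgol2a, a shugoshin that guards centromeric cohesion, was at 6.85, 7.47 and 5.22 in glioma and at 0 in the normal libraries. Of 26 other spindle, motor and cytokinesis genes, Ckap2l and Cenpj were wholly higher and 0 were wholly lower. The list above 0 was 24, 12 and 7 genes long in the glioma libraries and 2, 2 and 9 in the normal libraries, so the 2 groups overlapped.

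Condensin II gave opposite directions, with Ncapg2 at 6.35, 6.20 and 8.06 in glioma and 0, 0 and 3.09 in normal libraries, and Ncapd3 at 2.22, 0 and 7.24 in glioma and 8.14, 8.13 and 8.06 in normal libraries. Pkmyt1, which encodes the kinase Myt1 that keeps Cdk1 inactive, was at 6.48, 7.86 and 5.48 in glioma and 8.73, 9.12 and 9.19 in normal libraries, without overlap. Subunits of the anaphase-promoting complex, which resting cells also use, were above 0 for 16, 16 and 13 of 16 genes in glioma and 9, 15 and 16 in normal libraries, with 1 wholly higher, Anapc10, and 0 wholly lower. Cohesin and its regulators had 10, 10 and 10 of 10 genes above 0 in glioma and 9, 9 and 10 in normal libraries, with 0 separated in either direction and a median difference of -0.19.

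**Figure D4:**
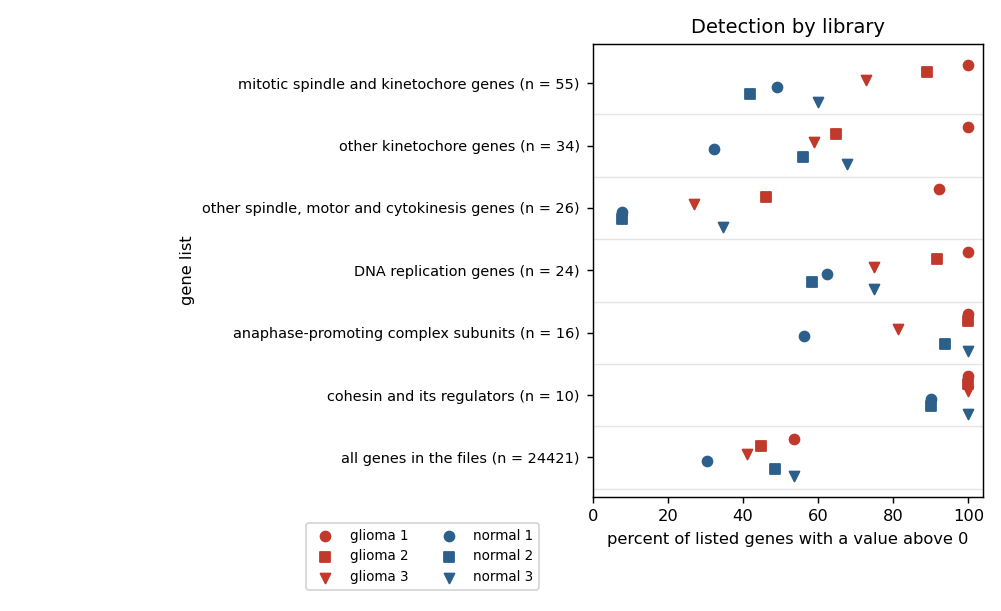
Percent of the genes of each list that were above 0 (horizontal axis) in each glioma (red) and normal (blue) library, for 7 sets of genes (vertical axis). The mitotic genes lie at 72.7% or more in glioma and at 60.0% or less in normal libraries, a separation that the shared floor of 7.43 ends. The other kinetochore genes and the other spindle, motor and cytokinesis genes overlap between the groups. So do the anaphase-promoting complex, cohesin and all genes. DNA replication genes meet at 75% in glioma replicate 3 and normal replicate 3.

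Among regulators that act on mitotic promoters, E2f1, a factor of the G1 to S transition, was at 10.29, 9.11 and 7.56 in glioma and 0, 4.45 and 1.42 in normal libraries. Foxm1, an activator of mitotic genes, was at 5.38, 7.72 and 7.45 in glioma and 0, 5.70 and 4.66 in normal libraries, with overlap. Nfya, a subunit of NF-Y, was at 10.51, 8.95 and 9.83 in glioma and 0, 8.83 and 8.66 in normal libraries, while Rbl1, a pocket protein, was at 6.54, 6.83 and 7.37 in glioma and 8.95, 8.0 and 7.77 in normal libraries. E2f1 and Nfya were the 2 of 22 regulators wholly higher in glioma, and Rbl1 was the 1 wholly lower. Of 8 G1 cyclins and kinases, 0 separated the groups. Among 15 inhibitors of the cell cycle, Cdkn1a and Tob1 were wholly higher. Cdkn1a, which encodes the kinase inhibitor p21, was at 11.31, 12.45 and 13.15 in glioma and 10.94, 10.77 and 11.09 in normal libraries. Of 24 DNA replication genes, 4 were wholly higher in glioma, namely Mcm4, Pcna, Rrm1 and Pole, and 0 wholly lower. Replication genes above 0 numbered 24, 22 and 18 in glioma and 15, 14 and 18 in normal libraries.

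Markers of other cells differed between the same libraries, and their part in the mitotic values was not tested. Of 12 glioma and neural progenitor markers, 12, 10 and 8 were above 0 in glioma and 6, 8 and 10 in normal libraries, with summed back-transformed levels of 28753 to 44309 in glioma and 15400 to 55218 in normal libraries. Prom1, at 13.59, 14.82 and 14.54 in glioma and 13.48, 15.65 and 15.52 in normal libraries, was the highest marker except in glioma replicate 1. Sums of the other libraries thus largely follow that gene and do not measure such cells. Sox2, a stem cell factor of the neural lineage, was at 7.92, 5.53 and 8.47 in glioma and 0, 0 and 1.22 in normal libraries. Sox11, of neural progenitors, was at 13.89, 6.13 and 7.58 in glioma and 0, 2.84 and 1.12 in normal libraries. These markers and Fabp7 were the 3 of the 12 whose glioma values all exceeded the normal values, where 6.91% of all tested genes did so, and 0 of the 12 were wholly lower. Other markers of the list had lower means in glioma, with differences of -3.21 for Pax6, -0.76 for Sox9, -0.57 for Prom1 and -0.36 for Nes. Without normal replicate 1, 4 of the 12 were wholly higher and 3 wholly lower in glioma. Of 18 microglia and macrophage markers, 15, 4 and 14 were above 0 in glioma and 7, 8 and 10 in normal libraries, with summed levels of 1376, 2769 and 19446 in glioma and 4544, 471 and 347 in normal libraries. Of 8 fibroblast markers, 7, 4 and 0 were above 0 in glioma, with sums of 4012, 703 and 0, and 3, 3 and 4 in normal libraries, with sums of 975, 100 and 59.

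Granulocyte markers were above 0 for 6 of 7 genes in glioma replicate 1, for 0 in the other glioma libraries and for 0, 1 and 1 in normal replicates 1, 2 and 3, with sums of 9558, 0 and 0 in glioma and 0, 38 and 10 in normal libraries. Glioma replicate 1 is also the library with all 55 mitotic genes above 0 and with the highest value for 34 of them. The count of 34 has no share over all genes beside it. Without glioma replicate 1, the glioma values of both other libraries exceeded each normal value for 17 members, beside 15.0% of tested genes. The 15 members separated with all libraries are among the 17 by construction, since leaving out a library cannot end a separation. This count therefore cannot show whether the mitotic values depend on that library. Pericyte and smooth muscle markers were above 0 for 8, 11 and 10 of 11 genes in glioma and for 9, 11 and 11 in normal libraries, with sums of 10124 to 18404 and 6918 to 20763. Of 9 T and NK cell markers, 1, 2 and 1 were above 0 in glioma and 1, 1 and 1 in normal libraries. Cd3e, Cd3g, Cd4, Cd8a, Nkg7 and Gzmb were at 0 in all 6 libraries. Cd3d was at 0, 3.82 and 0 in glioma and 7.67, 4.88 and 3.25 in normal libraries, Lck was above 0 in glioma replicates 1 and 2 only, at 8.63 and 8.62, and Il2rb in glioma replicate 3 only, at 8.06. Neuron markers were above 0 for 6, 1 and 2 of 6 genes in glioma and 2, 6 and 6 in normal libraries, and astrocyte markers for 4, 2 and 3 of 6 in glioma and 3, 5 and 5 in normal libraries. Erythroid markers summed to 411414, 92193 and 13955 in glioma and 14873, 56692 and 49564 in normal libraries. Of the endothelial markers, 1 was wholly lower in glioma, Egfl7, at 15.83, 17.07 and 15.56 in glioma and 17.31, 17.62 and 17.62 in normal libraries.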

How the data were processed

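Libraries of sorted endothelial cells used 500 ng of total RNA and the Lexogen QuantSeq kit (labels' protocols). This kit reads the 3′ end of transcripts, so a value needs no correction for gene length, which no value received here. Per the submitters' processing notes, the authors used Bowtie2, edgeR and mm10, listed with no role. How reads were counted, with or without strand, is not given in the sources used here, nor are the annotation and normalization. The deposited log2 values (1 for each of 24421 symbols in each library) carry no header on their scale. Their highest value was 20.85 in every library, and 2 to the power of the value, minus 1, was within 0.02 of a multiple of 1 divided by 6 for 100.00% of values above 0, so they were read as log2(x + 1) of quantile-normalized values.

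The deposited values went into limma 3.58.1 (R 4.3.3), whose variance prior followed the mean and whose only term was the group. Genes were tested where 3 or more libraries had a back-transformed value of 1 or more (11862 genes), with Benjamini-Hochberg adjustment over all of them. Differences subtract the normal mean from the glioma mean on the log2(x + 1) scale, with a standard error (SE). The added 1 lowers the change between low values above 0. A listed 0, in contrast, can lie far below a library's lowest value above 0 and enlarge a difference. The median difference of the 55 members was 3.34, and 0.38 with the shared floor. The fit was tested on simulated data with a common spread and no listed zeros. That test thus does not cover the zeros and unequal lowest values of these libraries. The design allowed for counts, and the files hold none.

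The members and lists were chosen with earlier results of these data known, so the list as a whole received no test. All members are named, with values in every library. Of 337 symbols in all lists, 330 stood in the files, 5 under a synonym, and 2 were not matched. Of other lists, genes whose groups did not overlap were named by rule, and Foxm1, Lcorl, Lctl, Exosc9, Cdc23, Tnnc2, Elovl1, Pecam1, Sox2 and Sox11 were chosen after their values were seen. Gene positions are from GENCODE M21 (GRCm38, the same build as mm10). Alternatives were other filters, a pseudocount, treatments of zeros, a centring, a plain variance prior, the replicate block and each library left out.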

Additional observations from a re-analysis of the deposited data

How the results depend on the processing

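No member passed an adjusted p of 0.05 in limma under the alternatives run, except without the mean trend, where 15 genes and 3 members passed (Mad2l1, Zwilch and Cdca8, each at an adjusted p of 0.0475 and each at 0 in every normal library). The median difference of the 55 members was 1.81 with a pseudocount of 16, 0.38 with the shared floor and 0.86 over the 41 members that keep a value with zeros left out. The count wholly higher in glioma was 5 with the shared floor (Ccna2, Mad2l1, Birc5, Kif23 and Ube2c), beside 4.14% of tested genes. It was 23 with centring, beside 7.6%, and 15 to 32 with libraries left out, beside 7.76% to 24.6%. Centring moved the zeros of each library by its own amount. Bub1, Ttk, Aurkb, Nek2, Melk and Hmmr thus entered the 23, although listed at 0 in glioma replicate 3 and in every normal library. Leaving out glioma replicate 3 gave 26, beside 12.4%, and leaving out normal replicate 1 gave 29, beside 14.7%. The count wholly lower was 5 with zeros left out (Ccnb1, Nuf2, Pbk, Tpx2 and Ckap2), beside 14.7% of tested genes. In that setting 13 were wholly higher, beside 15.2%, and a group can hold 1 value. With libraries left out, 0 to 3 were wholly lower, beside 7.22% to 30.9%. Members above the shared floor numbered 44, 24 and 27 in the glioma libraries and 26, 11 and 10 in the normal libraries. Filters, the trend and the block cannot change these counts.

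Of 194 recomputed differences of the 13 members above 0 in all libraries, 179 kept their sign, 1 was 0.00 and 14 turned. The filters, the plain variance prior, the replicate block and leaving out zeros cannot change the difference of such genes. Their share of the 179 was thus fixed in advance and does not measure stability. With libraries left out, the differences ranged from -0.21 to 0.58 for Bub3, -1.09 to 3.05 for Dlgap5, -0.13 to 0.41 for Ckap5, -1.15 to 0.93 for Stmn1 and -0.16 to 0.70 for Pttg1, and Dlgap5 was at -0.13 with a pseudocount of 16. With the replicate number as a block, 0 genes passed, and 610 reached an unadjusted p under 0.05, against 509 without the block. Deviations of equally numbered libraries correlated at 0.13, 0.03 and 0.06 across genes, and glioma replicate 2 correlated best with normal replicate 3, so the numbers do not show a pairing. The causes of these changes were not tested. Sequencing depth, which would limit what a 0 means, is unknown.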
